A study of Mus musculus with 6 samples.

Results

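The genes of glucose and glycogen handling were followed in mouse liver after tunicamycin. They are 43 genes of gluconeogenesis, glycogen storage and breakdown, glucose entry, glycolysis, fructose entry and the pentose phosphate pathway, chosen by symbol and read by 1 probe per gene, the one with the highest mean signal over all 6 arrays. Of the 43, 38 had a probe named in the array annotation and 35 passed the detection filter, among 9332 named genes and 11678 items tested in all. An item is a named gene or a probe without a gene name. The members without a named probe here were Hk2, Gpi1, Pfkfb1, Eno1 and G6pdx. Hk1, Pgm2 and Pgd had named probes that were above background on 0 of 6 arrays, so their changes could not be measured.

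The liver releases glucose during fasting and stores it after a meal. Gluconeogenesis builds glucose from lactate, amino acids and glycerol, and its last step, run by glucose-6-phosphatase, is shared with glycogen breakdown. Glycolysis runs in the other direction, with separate enzymes at the steps that are irreversible. Hepatocytes use their own forms of several of these proteins, such as the glucose transporter GLUT2, pyruvate kinase L and liver glycogen phosphorylase, whereas most other cells use GLUT1, pyruvate kinase M and the brain or muscle phosphorylase.

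RNA came from C57Bl/6N mice aged 8 weeks and was measured on an Illumina bead array. The tunicamycin group has 3 arrays from mice given tunicamycin at 2.5 mg/kg into the peritoneum, and the vehicle group 3 arrays from mice given an equal volume of vehicle. Tunicamycin in DMSO was diluted with PBS that contained glucose, and liver was taken after 12 hours. Tunicamycin stops N-glycosylation of new proteins at its start and so stresses the endoplasmic reticulum. The labels give no feeding state at harvest and tie no array to a named animal, litter or chip, so the p-values measure the spread between these arrays.

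Between 15503 and 16603 of 45281 probes were above background on an array, with a detection p under 0.05. The stress gene Ddit3 rose 276-fold and its target Trib3 28.8-fold (adjusted p = 4.05e-11 and 2.97e-08 by limma's moderated test). Hspa5, the chaperone BiP, had a mean normalized log2 intensity of 4.46 on vehicle and 6.73 on tunicamycin arrays, with detection on 1 of 3 vehicle arrays. Of 6 hepatocyte markers, 5 (Ttr, Apoa1, Serpina1a, Cyp2e1 and Cps1) were above background on every array and the probe of Alb did not pass the filter, while 0 of 3 muscle and 0 of 3 adipocyte markers passed the filter. The sample is whole liver, so fewer cells of a type and less RNA per cell cannot be told apart. Levels below are normalized log2 intensities, fold changes are tunicamycin over vehicle unless stated, and a gene rose or fell where limma's Benjamini-Hochberg adjusted p over all 11678 items was under 0.05.

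More of the tested genes of glucose and glycogen handling were lower than higher after tunicamycin. Of the 35 members tested, 22 fell and 6 rose, or 62.9% and 17.1%. Over all items tested, 31.4% fell and 31.0% rose, 62.5% together. The arrays of the groups did not overlap for 25 members, or 71.4%, against 66.7% of all items. At least 2-fold falls were seen in 13 members, or 37.1%, against 11.6% of all items, and 2-fold rises in 2 members, or 5.71%, against 11.1%. The median log2 fold change of the members was -0.50, against -0.01 for all items. The members that passed only through their vehicle arrays, Pck1 and Ppargc1a, could only be lower after tunicamycin, given how they passed. Both are nevertheless counted among the 22 that fell, the 13 with 2-fold falls and the 25 without overlap, and in the median. The shares of all items hold such items too.

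**Figure D1:**
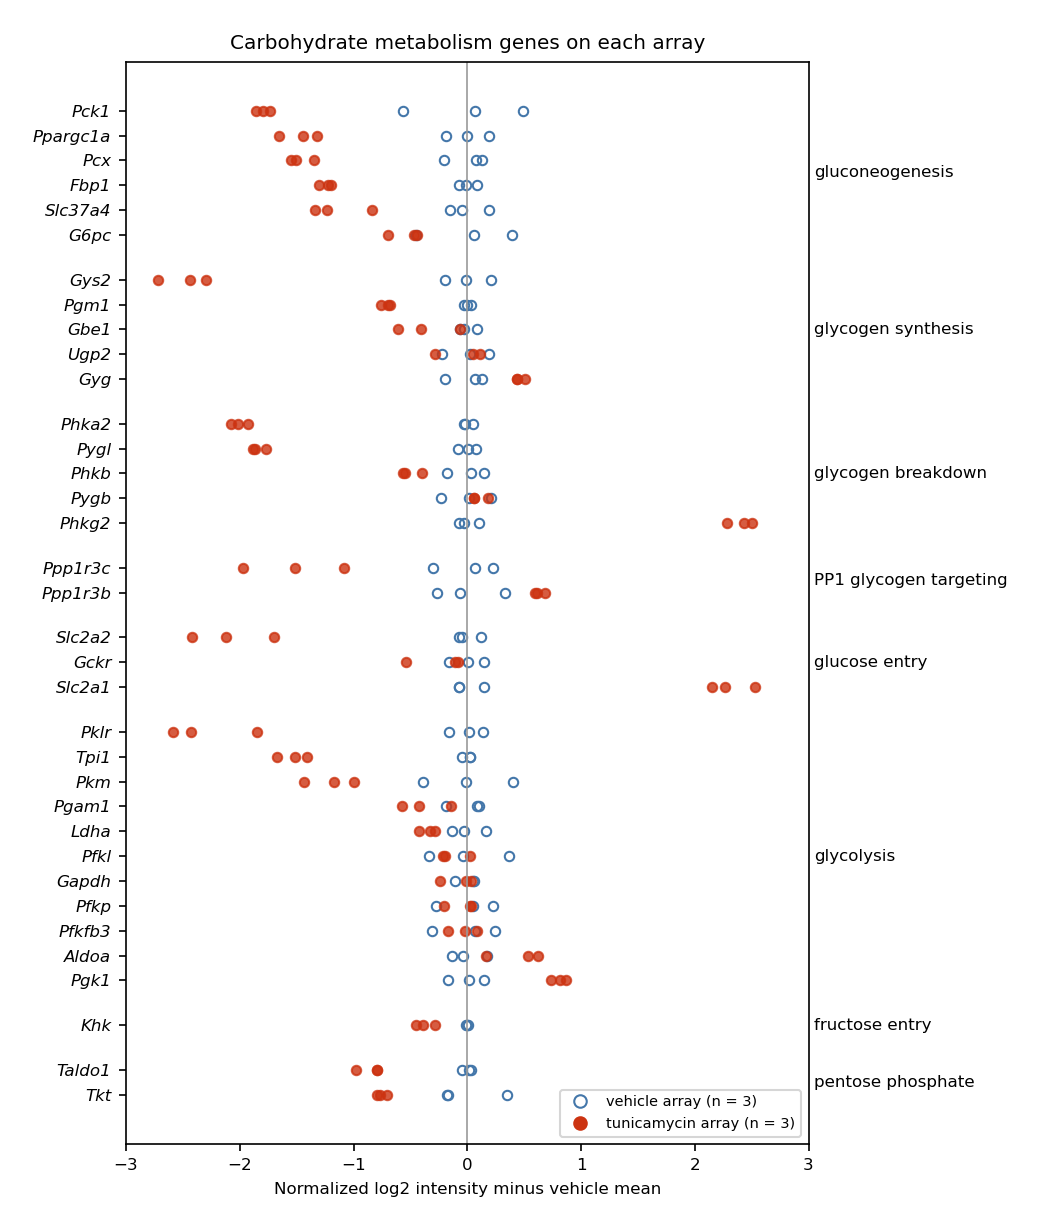
Normalized log2 intensity of the 35 tested members on each of the 3 vehicle arrays (open circles) and 3 tunicamycin arrays (filled circles), as the difference from the vehicle mean and grouped by sub-pathway. Most tunicamycin points lie to the left, while Phkg2 and Slc2a1 lie more than 2 log2 units to the right. Pck1 and Ppargc1a could only lie to the left, given how they passed the detection filter.

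Of the 6 tested genes of gluconeogenesis, the 4 that were measured in both groups (Pcx, Fbp1, Slc37a4 and G6pc) all fell, with log2 fold changes from -1.46 to -0.53. Of all items, 31.4% fell. The other genes of this group, Pck1 and Ppargc1a, passed the filter only through their vehicle arrays and are given as bounds. Pck1 encodes the cytosolic phosphoenolpyruvate carboxykinase, an early committed step of the pathway. Its log2 intensity was 5.46, 6.09 and 6.52 on the vehicle arrays and 4.29, 4.23 and 4.17 on the tunicamycin arrays. The groups did not overlap, and the probe was above background on 3 of 3 vehicle and 0 of 3 tunicamycin arrays, so the fall is a bound. Pck1 was at least 2.78-fold lower, with group means of 6.02 ± 0.53 and 4.23 ± 0.06 (SD, n = 3). No p-value is given for it, as the way it passed the filter fixed the direction. A dimmer probe of Pck1 was also above background on 3 of 3 vehicle and 0 of 3 tunicamycin arrays, so it too could only be lower. Its fitted log2 fold change was -0.62, against -1.80 for the brighter probe. The fitted fold of the brighter probe, which is no bound, moved by 2.19 times without background correction and 1.83 times with an offset of 50.

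Ppargc1a encodes PGC-1alpha, a coactivator that fasting signals induce and that switches on Pck1 and G6pc. Its log2 intensity was 5.88, 5.69 and 6.08 on vehicle arrays and 4.56, 4.44 and 4.22 on tunicamycin arrays, where it was above background on 0 of 3. It was at least 2.51-fold lower, with means of 5.88 ± 0.19 and 4.41 ± 0.17 (SD, n = 3). As for Pck1, the filter fixed the direction and no p-value is given. The fitted fold, which is no bound, moved by 1.96 times without background correction, 1.65 times with an offset of 50 and 1.63 times with the second deposited table. Neither Pck1 nor Ppargc1a could be tested without a vehicle array, as the remaining 2 vehicle arrays did not satisfy the filter.

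Pcx, which encodes the mitochondrial pyruvate carboxylase that feeds the pathway, fell 2.76-fold, which is -1.46 ± 0.12 on the log2 scale (SE). Fbp1, the fructose-1,6-bisphosphatase, had intensities of 12.33, 12.18 and 12.23 on vehicle arrays and 11.03, 11.05 and 10.94 on tunicamycin arrays. The 3 tunicamycin values were close together and below every vehicle value, a 2.36-fold fall (adjusted p = 2.96e-06, limma, n = 3). Slc37a4, the transporter that carries glucose-6-phosphate into the endoplasmic reticulum, fell 2.20-fold, with a log2 fold change of -0.53 in place of -1.14 without background correction.

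G6pc, the catalytic subunit of glucose-6-phosphatase, which faces the lumen of that compartment, was measured at high signal on all arrays. Its log2 intensity was 13.43, 13.10 and 12.59 on vehicle arrays and 12.35, 12.60 and 12.57 on tunicamycin arrays. Vehicle replicate 3 lay between tunicamycin replicates 2 and 3, so the groups overlapped. The log2 fold change was -0.53 ± 0.19 (SE) with an adjusted p of 0.0323 (limma, n = 3). That call ended in 9 of 15 alternative settings, among them leaving out vehicle replicate 1 or 2 or any tunicamycin array, with adjusted p-values from 0.00166 to 0.149 over all of them.

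Promoter sequences are shown for Pck1, Ppargc1a and Pygl, which encodes liver glycogen phosphorylase. These genes were picked because all were lower and each window holds the letters TGACG. The letters are the core of the cAMP response element, through which glucagon acts on Pck1. A link between the letters and the falls was not tested, and genes picked by both cannot show one. The sequences are from RefSeq on GRCm38.p6 and run 5′ to 3′ on the gene's strand. Each goes from 250 bases before the transcription start to 50 after it, with TGACG on either strand in capitals. The windows are chr2:173152823-173153122 on the plus strand for Pck1, chr5:51567676-51567975 on the minus strand for Ppargc1a and chr12:70227634-70227933 on the minus strand for Pygl.
Pck1: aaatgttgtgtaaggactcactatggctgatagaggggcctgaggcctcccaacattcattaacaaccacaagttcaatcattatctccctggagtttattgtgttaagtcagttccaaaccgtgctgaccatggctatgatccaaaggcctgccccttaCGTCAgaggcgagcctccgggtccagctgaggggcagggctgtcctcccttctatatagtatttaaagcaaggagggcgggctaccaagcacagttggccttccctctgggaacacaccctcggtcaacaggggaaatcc
Ppargc1a: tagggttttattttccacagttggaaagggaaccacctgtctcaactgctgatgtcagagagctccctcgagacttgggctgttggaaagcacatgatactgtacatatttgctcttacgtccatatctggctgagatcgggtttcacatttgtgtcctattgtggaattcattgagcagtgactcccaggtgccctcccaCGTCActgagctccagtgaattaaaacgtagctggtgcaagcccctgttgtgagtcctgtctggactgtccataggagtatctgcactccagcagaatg
Pygl: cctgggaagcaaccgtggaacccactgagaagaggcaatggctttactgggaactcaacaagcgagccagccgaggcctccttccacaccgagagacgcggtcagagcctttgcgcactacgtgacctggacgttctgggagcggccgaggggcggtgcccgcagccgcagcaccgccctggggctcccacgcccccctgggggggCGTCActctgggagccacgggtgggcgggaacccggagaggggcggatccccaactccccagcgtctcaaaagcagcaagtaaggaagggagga

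Counted from the start, the match lies at -90 to -86 in Pck1, -49 to -45 in Ppargc1a and -44 to -40 in Pygl, in each case on the opposite strand. Of the 35 tested members, 33 had at least 1 window, 43 windows in all, and TGACG was present in 15 of these, or 34.88%, against 20.81% of 32851 mouse promoter windows of the same length. The 15 windows belong to 12 members, among which Gyg rose, Pfkfb3 and Pygb were not called and the others fell. Of all 33 members with a window, 21 fell, 5 rose and 7 were not called. The windows compared against include genes that were not tested here, and some genes have several windows. No difference in share was tested. A match is a description of these letters and not a bound site.

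Glycogen synthesis genes did not move as 1 block. Of 5 tested, 3 fell, 1 rose and 1 was not called, or 60% falling and 20% rising, beside 31.4% and 31.0% of all items. Gys2, the liver glycogen synthase that adds glucose units to the chain, had intensities of 8.22, 8.00 and 7.82 on vehicle arrays and 5.57, 5.72 and 5.29 on tunicamycin arrays. The lowest vehicle value was more than 2 log2 units above the highest tunicamycin value. It fell 5.59-fold (adjusted p = 3.00e-07, limma, n = 3), and both of its probes gave similar values, -2.48 and -2.35 on the log2 scale. Without background correction the log2 fold change was -1.46, and with an offset of 50 it was -1.86.

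Pgm1, a phosphoglucomutase that interconverts glucose-1-phosphate and glucose-6-phosphate, went from 12.57, 12.63 and 12.59 to 11.84, 11.90 and 11.92. The 3 values of each group were nearly equal and the groups were clearly apart, a 1.64-fold fall (adjusted p = 0.000117, limma). Gbe1, the branching enzyme, had a log2 fold change of -0.36 ± 0.14 (SE) at an adjusted p of 0.04995, and the call ended in 11 of 15 alternatives, including leaving out any vehicle array or tunicamycin replicate 1 or 2. Ugp2, which makes the UDP-glucose that Gys2 uses, did not pass the test, with a log2 fold change of -0.04 and an interval from -0.36 to 0.29 (95%, limma). Gyg, glycogenin, the protein primer of the granule, had 4.71, 5.04 and 4.97 on vehicle arrays and 5.35, 5.41 and 5.35 on tunicamycin arrays by its brighter probe. The groups did not overlap, and it rose 1.38-fold (adjusted p = 0.0056, limma, n = 3). Its dimmer probe had a log2 fold change of 0.17 and was not called (adjusted p = 0.356 over probes, limma).

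On the side of breakdown, liver phosphorylase fell while the brain form did not pass the test. Pygl, which releases glucose-1-phosphate from glycogen in hepatocytes, had intensities of 12.43, 12.35 and 12.27 on vehicle arrays and 10.58, 10.48 and 10.46 on tunicamycin arrays. All tunicamycin values were lower, by 3.59-fold on average (adjusted p = 2.27e-07, limma, n = 3). Pygb, the brain form, had 5.67, 5.24 and 5.48 against 5.52, 5.53 and 5.64. Those groups overlapped, with a log2 fold change of 0.10 and an interval from -0.18 to 0.38 (95%, limma).

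The subunits of phosphorylase kinase, the enzyme that activates phosphorylase, moved in opposite directions. The complex joins a catalytic gamma subunit with regulatory alpha and beta subunits and calmodulin, and mutations in the liver subunits cause glycogen storage disease in humans. Phka2, the liver alpha subunit, had intensities of 7.49, 7.50 and 7.58 on vehicle arrays and 5.51, 5.45 and 5.60 on tunicamycin arrays, a 4.02-fold fall (adjusted p = 1.16e-07, limma, n = 3). Phkg2, the liver gamma subunit, went from 7.54, 7.41 and 7.37 to 9.87, 9.95 and 9.72. It rose 5.30-fold (adjusted p = 6.53e-08, limma). Phkb, the beta subunit, fell 1.41-fold (adjusted p = 0.00401), a call that ended with 1 median per array as the normalization (adjusted p = 0.0635, with 0.00333 to 0.0635 over all alternatives).

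The size of both larger changes differed between probes. The 3 probes of Phka2 had log2 fold changes of -2.01, -1.18 and -0.92, each called. The pair of Phkg2 probes gave 2.40 and 1.18. The dimmer of these was above background on 0 of 3 vehicle and 3 of 3 tunicamycin arrays, so it could only be higher, given how it passed the filter. Averaging over probes gave -1.37 for Phka2 and 1.79 for Phkg2, and without background correction Phka2 had -1.11.

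**Figure D2:**
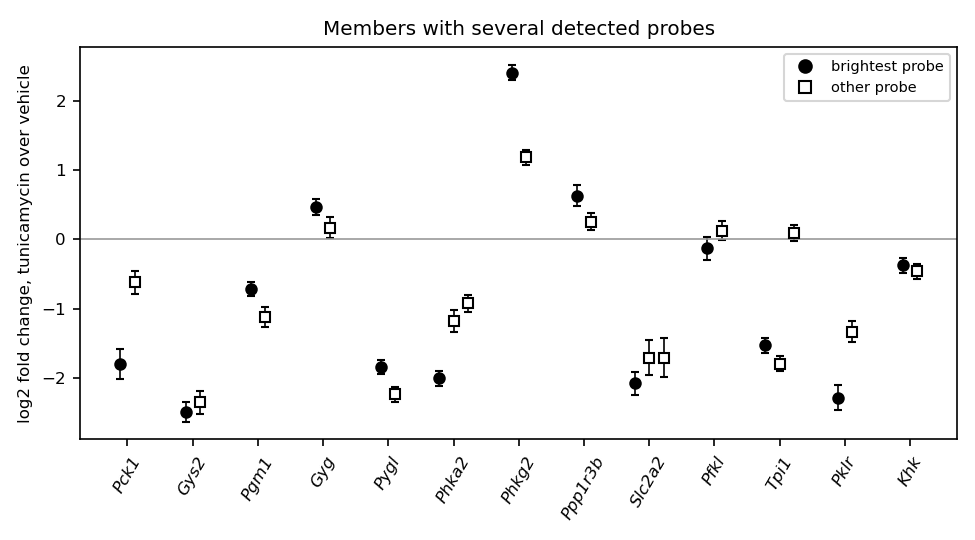
Log2 fold change of tunicamycin over vehicle with its standard error (bars, limma) for each detected probe of the 13 members with several such probes. Filled circles mark the probe used for the gene and open squares the others. Only Pfkl and Tpi1 have probes on both sides of 0.

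Glycogen-targeting subunits of protein phosphatase 1 bring the phosphatase to the granule, where it activates glycogen synthase. Ppp1r3c, which encodes PTG, had intensities of 10.84, 10.32 and 10.69 on vehicle arrays and 9.53, 8.65 and 9.10 on tunicamycin arrays. The tunicamycin values were spread but all lay lower, a 2.88-fold fall (adjusted p = 0.000143, limma, n = 3). Ppp1r3b, the main hepatic subunit GL, went the other way, from 10.92, 10.53 and 10.32 to 11.20, 11.28 and 11.18. That 1.55-fold rise was called by its brighter probe (adjusted p = 0.00402, limma) and not by the dimmer one, which was at 0.25 on the log2 scale (adjusted p = 0.101 over probes, limma). Ppp1r3g, a further subunit that is no member, was at least 7.34-fold lower, with means of 7.43 ± 0.39 and 4.27 ± 0.08 (SD, n = 3). It was detected on 3 of 3 vehicle and 0 of 3 tunicamycin arrays. As it passed the filter only through its vehicle arrays, it could only be lower, and its fitted fold moved by 3.26 times without background correction and 2.56 times with its probes averaged.

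Of the 4 isozyme pairs computed, the glucose transporters had the largest difference of change between the liver and the non-liver form. Slc2a2 encodes GLUT2, the low-affinity transporter of hepatocytes. Its intensity was 10.25, 10.08 and 10.05 on vehicle arrays and 8.43, 8.00 and 7.70 on tunicamycin arrays, a 4.22-fold fall (adjusted p = 2.88e-06, limma, n = 3). Slc2a1 encodes GLUT1, the transporter of most other cells. It was at 7.34, 7.34 and 7.56 on vehicle arrays and rose to 9.68, 9.94 and 9.57, a 4.98-fold change (adjusted p = 2.17e-07, limma). Neither pair of groups overlapped, and the 3 detected probes of Slc2a2 gave -2.08, -1.71 and -1.71.

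Within each array, the log2 intensity of Slc2a1 minus that of Slc2a2 was -2.90, -2.74 and -2.49 with vehicle and 1.25, 1.94 and 1.86 with tunicamycin. The change in this difference was 4.39 ± 0.25 (SE, n = 3), with a 95% interval from 3.71 to 5.08. It was 3.72 without background correction, 4.05 with an offset of 50 and 3.98 from the second deposited table. By an exact permutation test it had p = 0.1, two-sided, the smallest value that 3 against 3 arrays allow, and 0.133 after adjustment over 4 pairs. Such a difference shows unequal change and not which gene has more transcripts. Gckr, a regulator of glucose phosphorylation in hepatocytes, was at -0.24 on the log2 scale and not called (adjusted p = 0.177, limma).

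The promoter windows of this pair are shown to set the forms side by side, with each CG dinucleotide in capitals. Both are on the plus strand, at chr4:119108495-119108794 for Slc2a1 and chr3:28697653-28697952 for Slc2a2 (RefSeq, GRCm38.p6, 5′ to 3′).
Slc2a1: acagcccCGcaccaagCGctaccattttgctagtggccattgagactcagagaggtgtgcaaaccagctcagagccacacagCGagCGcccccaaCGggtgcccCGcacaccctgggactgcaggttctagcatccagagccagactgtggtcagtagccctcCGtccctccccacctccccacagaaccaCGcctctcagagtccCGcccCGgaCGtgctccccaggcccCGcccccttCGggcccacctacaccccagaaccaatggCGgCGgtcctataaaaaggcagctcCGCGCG
Slc2a2: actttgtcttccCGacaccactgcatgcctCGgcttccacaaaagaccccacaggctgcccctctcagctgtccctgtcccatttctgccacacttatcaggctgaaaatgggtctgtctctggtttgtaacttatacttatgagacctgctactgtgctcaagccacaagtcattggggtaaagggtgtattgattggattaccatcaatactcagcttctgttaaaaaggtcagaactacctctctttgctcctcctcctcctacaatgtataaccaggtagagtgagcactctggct

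The Slc2a1 window holds 18 CG dinucleotides and the Slc2a2 window 2. Over the named genes tested that have a window, the median count was 20.

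Steps of glycolysis moved unevenly. Of 11 tested genes, 5 fell, 2 rose and 4 were not called, with a median log2 fold change of -0.13. The shares were 45.5% falling and 18.2% rising, beside 31.4% and 31.0% of all items. Together 63.6% were called, close to the 62.5% of all items. Pklr, which encodes the liver pyruvate kinase that closes glycolysis and that glucose and insulin induce, had intensities of 7.52, 7.22 and 7.40 on vehicle arrays and 5.54, 4.96 and 4.79 on tunicamycin arrays. It fell 4.88-fold (adjusted p = 2.40e-06, limma, n = 3), with no overlap. Its dimmer probe had a log2 fold change of -1.33 against -2.29, and without background correction the brighter probe had -1.15, and -1.55 with an offset of 50.

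Tpi1, the triose phosphate isomerase, went from 12.35, 12.43 and 12.43 to 11.00, 10.73 and 10.89, a 2.89-fold fall (adjusted p = 1.08e-06, limma, n = 3). Another bright probe gave a log2 fold change of -1.80, whereas a dim one, above background on 1 of 3 vehicle arrays, gave 0.09. Pgk1, the phosphoglycerate kinase, which makes ATP in glycolysis, rose from 10.24, 10.42 and 10.56 to 11.15, 11.22 and 11.27. All its tunicamycin values were higher, by 1.75-fold (adjusted p = 0.000153, limma).

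Gapdh, which lies between Tpi1 and Pgk1 in the pathway, had 12.31, 12.47 and 12.47 on vehicle arrays and 12.41, 12.17 and 12.45 on tunicamycin arrays. Its groups overlapped, with a log2 fold change of -0.07 and an interval from -0.33 to 0.19 (95%, limma). Aldoa, the aldolase of muscle and most other tissues, rose by 0.44 ± 0.14 (SE) on the log2 scale, with overlapping groups (adjusted p = 0.022, limma). This call ended in 4 of 15 alternatives, among them leaving out vehicle replicate 2 or tunicamycin replicate 1 or 3 (0.00598 to 0.0908 over all of them).

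Pgam1, the phosphoglycerate mutase, had a log2 fold change of -0.38 ± 0.14 (SE) with overlapping groups (adjusted p = 0.0356, limma). Its call ended in 7 of 15 alternatives, including leaving out vehicle replicate 2 or 3 or tunicamycin replicate 1 or 2 (adjusted p of 0.0115 to 0.306 over all). Ldha, the lactate dehydrogenase subunit, fell 1.27-fold without overlap (adjusted p = 0.0217, limma), a call that ended in 3 of 15 alternatives, leaving out vehicle replicate 2 or 3 or tunicamycin replicate 3 (0.00427 to 0.0879 over all). Pfkfb3, an inducible enzyme that makes the phosphofructokinase activator fructose-2,6-bisphosphate, had 4.67, 4.85 and 4.29 against 4.43, 4.69 and 4.59. Its probe was above background on 2 of 3 arrays of each group, so a change could hardly be measured.

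Of the 4 isozyme pairs that could be computed, the smallest difference of change was that of phosphofructokinase, with an interval on both sides of 0. Pfkl, the liver form, had 8.67, 8.97 and 9.38 on vehicle arrays and 8.81, 9.03 and 8.79 on tunicamycin arrays, and Pfkp, the platelet form, stood close to background at 4.69, 4.36 and 4.87 against 4.68, 4.43 and 4.66. The change in Pfkp minus Pfkl was 0.08 ± 0.25 (SE), with a 95% interval from -0.61 to 0.77 (exact permutation p = 0.9, n = 3), and its sign turned in 5 of 14 alternatives.

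Pyruvate kinase was lower in both forms. Pkm, expressed in most cells outside hepatocytes, had intensities of 7.16, 6.37 and 6.75 on vehicle arrays and 5.33, 5.59 and 5.76 on tunicamycin arrays, a 2.30-fold fall (adjusted p = 0.000348, limma, n = 3). Pkm minus Pklr changed by 1.09 ± 0.38 (SE), with a 95% interval from 0.04 to 2.13 and an exact permutation p of 0.1 (0.133 adjusted). This change was 0.61 when probes were averaged and 0.55 without background correction, where Pkm itself had -0.60. For phosphorylase, Pygb minus Pygl changed by 1.94 ± 0.13 (SE), with an interval from 1.57 to 2.32 and the same exact p. Pfkfb3 could not be compared with its liver form Pfkfb1, which has no named probe here.

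**Figure D3:**
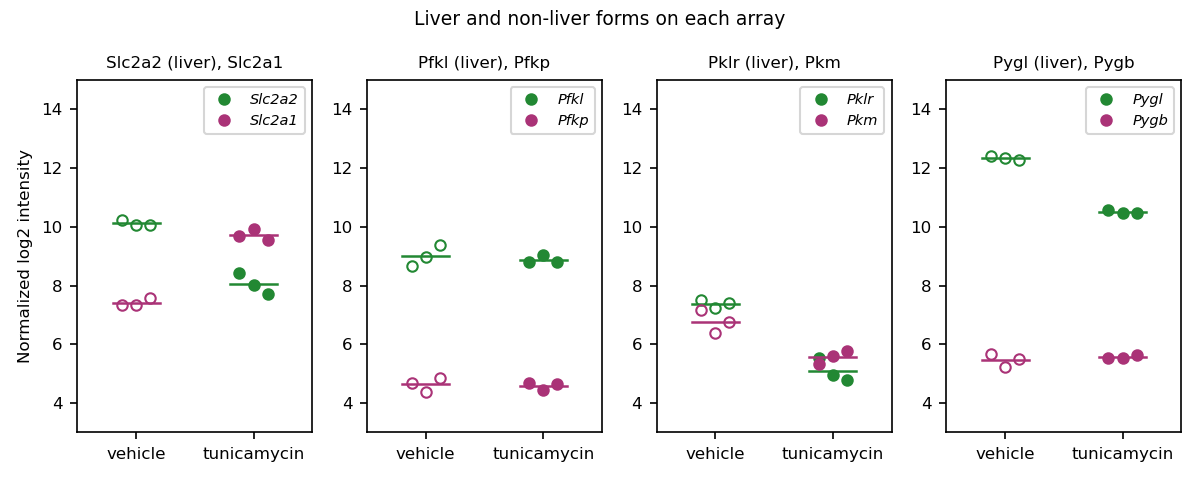
Normalized log2 intensity of the liver form (green) and the non-liver form (purple) of 4 proteins on the vehicle (open circles) and tunicamycin arrays (filled circles), 3 each, with a line at each mean. Slc2a2 and Slc2a1 move in opposite directions, Pklr and Pkm both move down, Pygl moves down with little movement of Pygb, and Pfkl and Pfkp overlap between groups. Heights of different genes are not comparable, since each has its own probe.

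Pkm is also a gene of macrophages, whose markers moved in the same direction. Of 14 macrophage and Kupffer cell markers, 12 were tested, 10 fell and 0 rose, or 83.3% falling, beside 31.4% of all items. The summed linear intensity of the markers was 3829 to 5442 on vehicle arrays and 1036, 1188 and 2653 on tunicamycin replicates 1, 2 and 3. The Cd5l probe did not pass the filter, Cd68 has no named probe here, and Marco, Timd4 and Cd163 were dim. Hk3, a hexokinase of myeloid cells that was picked after its value was seen, fell 1.82-fold. The log2 fold change of Pkm was -1.28 without tunicamycin replicate 3, whose macrophage sum was the highest of its group, and -1.20 with it. The part of these cells in the fall of Pkm was not tested.

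Endothelial cells use GLUT1. Their 9 tested markers summed to 3681 to 4308 on vehicle arrays and 3130 to 3356 on tunicamycin arrays. Of these markers 5 fell, 0 rose and 4 were not called. This and the next marker counts stand beside 31.4% of all items that fell and 31.0% that rose. The part of endothelial cells in the change of Slc2a1 was not tested. The 3 tested erythroid markers summed to 10516 to 14250 and 6492 to 10279, with 2 falling, Alas2 and Slc4a1. Slc4a1 was above background on 3 of 3 vehicle and 0 of 3 tunicamycin arrays, so it could only be lower. Stellate cell and fibroblast markers had 3 of 6 falling and 0 rising, cholangiocyte markers 0 of 2 called, neutrophil markers 1 of 3 rising and lymphocyte markers 1 of 2 falling. The hepatocyte markers summed to 69117 to 72902 and 53622 to 59377, with 3 of 5 falling, in the same direction as most members. Their part in the members' changes was not tested.

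The tested genes of fructose entry, 1 of 1, and of the pentose phosphate pathway, 2 of 2, fell, beside 31.4% of all items. Khk, ketohexokinase, which phosphorylates fructose in the liver, had intensities of 12.44, 12.43 and 12.42 on vehicle arrays and 12.14, 11.98 and 12.04 on tunicamycin arrays. Its vehicle values were nearly identical, and it fell 1.30-fold (adjusted p = 0.00785, limma, n = 3). Its other probe was at -0.46 on the log2 scale (adjusted p = 0.0043 over probes, limma). Tkt and Taldo1, the transketolase and transaldolase of the non-oxidative branch, both fell. Taldo1 went from 11.27, 11.26 and 11.19 to 10.45, 10.45 and 10.26, a 1.81-fold fall (adjusted p = 5.11e-05, limma). Tkt had 9.76, 9.77 and 10.28 against 9.23, 9.17 and 9.14, a 1.69-fold fall (adjusted p = 0.00124, limma). In neither gene did the groups overlap. The oxidative branch is not covered among the members, since G6pdx has no named probe here and Pgd was not above background.

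Other genes of these pathways, from a list of 57 enzymes and transporters, were measured for 31, of which 13 fell and 9 rose, or 41.9% and 29.0%, beside 31.4% and 31.0% of all items. The 13 include Ppp1r3g, which could only be lower, given how it passed the filter. Pfkm, the muscle form of phosphofructokinase, went from 8.21, 8.33 and 8.35 to 5.68, 5.69 and 5.56, a 6.30-fold fall (adjusted p = 2.55e-08, limma, n = 3). Its 3 probes gave -2.66, -2.25 and -0.11 on the log2 scale, so the size depends on the probe. Aldoc, the brain aldolase, fell 3.50-fold, opposite to Aldoa. Slc2a9, a urate transporter of the same family as GLUT2, fell 4.31-fold, with -0.90 on the log2 scale when its probes were averaged. Without background correction the log2 fold changes were -1.65 for Pfkm, -1.17 for Aldoc and -0.95 for Slc2a9.

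Among the rises, Pfkfb2, another enzyme that makes fructose-2,6-bisphosphate, rose 3.29-fold, from 7.02, 6.60 and 6.33 to 8.28, 8.53 and 8.30. Stbd1, which tethers glycogen to membranes, rose 3.29-fold as well, with vehicle values of 10.19, 10.21 and 10.25 and tunicamycin values of 11.95, 11.93 and 11.92. Both had separate groups, and the SD of Stbd1 was 0.03 and 0.02. Adpgk, which phosphorylates glucose with ADP, rose 2.77-fold, and Pgam5, a mitochondrial phosphatase that shares the name of the mutases and not their step, 2.74-fold. Pck2, the mitochondrial form of Pck1, had a probe at a deposited signal of 86.9 to 91.9 that was above background on 0 of 6 arrays.

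Of 18 genes of hormonal and transcriptional control, 16 were tested, 9 fell and 3 rose, or 56.2% and 18.8%, beside the same shares of all items. Gcgr, the glucagon receptor, had intensities of 9.11, 9.45 and 9.20 on vehicle arrays and 8.27, 8.50 and 7.65 on tunicamycin arrays, a 2.17-fold fall (adjusted p = 0.00074, limma, n = 3). Foxo1, a transcription factor that raises Pck1 and G6pc in fasting and that insulin holds back, went from 7.91, 7.68 and 7.46 to 6.36, 6.43 and 6.30, a 2.50-fold fall (adjusted p = 1.00e-05, limma). Irs2, an adaptor of the insulin receptor, fell 3.52-fold, or by 0.94 on the log2 scale without background correction. The groups did not overlap for any of these 3 genes.

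Mlxipl, which encodes ChREBP, the glucose-sensing factor that induces Pklr, had 11.05, 10.81 and 10.57 against 10.08, 9.98 and 9.99. It fell 1.73-fold (adjusted p = 0.000462, limma, n = 3). Pdk4, the kinase that shuts the entry of pyruvate into the citric acid cycle, rose 2.40-fold, while Pdk2, a related kinase chosen for the text after its value was seen, fell 2.70-fold.

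**Figure D4:**
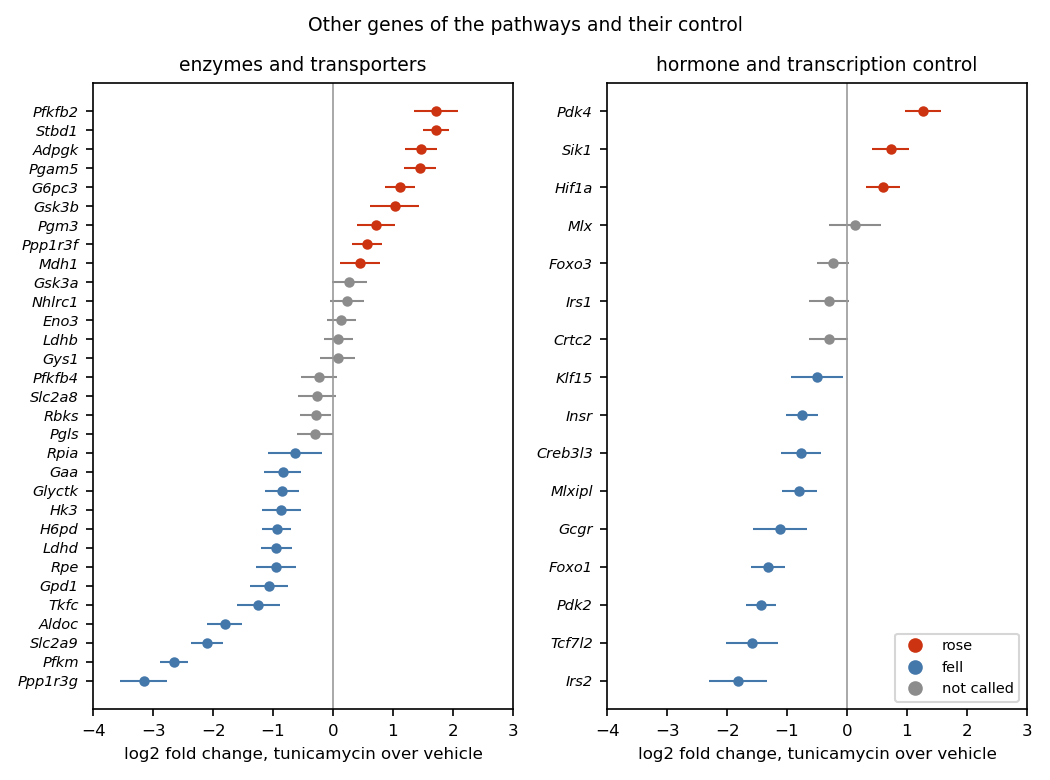
Log2 fold change of tunicamycin over vehicle with its 95% interval (bars, limma, n = 3 per group) for the 31 tested enzymes and transporters outside the member list and the 16 tested genes of hormonal and transcriptional control. Red genes rose, blue genes fell and grey genes were not called. Ppp1r3g could only be lower, given how it passed the detection filter.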

How the data were processed

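Per the labels' protocols, biotin-labelled cRNA from total liver RNA was hybridised to an Illumina bead array. The deposited table holds, per the file headers, the mean bead intensity of 45281 probes on 6 arrays and a detection p-value beside each. These intensities had not been background-subtracted or normalized, as read from the values, whose array medians ran from 88.9 to 96.8. A second deposited intensity table was background-subtracted and quantile-normalized, also as read from the values, and served as an alternative. No scanner or software is named in the labels or files.

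In limma 3.58.1 (R 4.3.3), background was corrected by normexp from the detection p-values with an offset of 16, followed by quantile normalization and log2. Fold changes of dim genes are therefore understated. The filter kept 16559 probes, those detected (p under 0.05) on 3 or more of 6 arrays. Names came from the platform annotation (34885 probes with 1 symbol, 18 with several, 10378 with none) and the GRCm38.p6 gene table, where 78 named probes had no entry. Each gene took its kept probe with the highest mean deposited signal. Of 13 members with several kept probes, 5 gave fold changes more than 1.5 times apart. Probes of related isozymes can bind more than 1 transcript.

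The groups were compared by lmFit and eBayes, two-sided, with Benjamini-Hochberg adjustment over 11678 items. Errors are standard errors from this fit, or SDs over 3 arrays, and precision is limited by how few arrays there are. A gene above background on no array of a group has its fold written as a bound ("at least"), for which each array of the dim group counts as its own signal or the lowest detected signal there, whichever is higher. Isozyme pairs were compared by an exact permutation test over 20 arrangements of the arrays, and their intervals assume normal spread. Simulated log2 intensities had the spread of these arrays and normal noise, with 200 of 11678 items changed. In them limma recovered 96% of changes of 2 log2 units, 90% of 1 and 30% of 0.5, with 5 false calls. A far larger share of items, 62.5%, was called in the real data, so these rates do not carry over to it directly.

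The members, lists, pairs and promoter motifs were chosen with earlier results of these data known. Values on every array are given for the genes of each pair, the 5 largest rises and 5 largest falls among members, and the 2 largest called changes of each sub-pathway. Of the other pathway genes, the text names the 5 largest rises and 5 largest falls and the fixed genes Pck2, Mlxipl, Gcgr and Foxo1. Some items of the lists are not reported here. Further genes are named as members or where the text says so. Alternatives covered background, offset, normalization, filter, probe choice, source table, variance model, replicate block and leaving out each array. A chip block was not run, because no chip is given in the sources used here.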

Additional observations from a re-analysis of the deposited data

How the results depend on the processing

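Over 15 alternatives, 22 of the 28 called members were called in the same direction wherever they could be tested, and 6 (G6pc, Gbe1, Phkb, Aldoa, Pgam1 and Ldha) lost the call in at least 1. The 22 include Pck1 and Ppargc1a, whose direction the filter fixed and which only 11 of the 15 alternatives tested. None of the 7 members that were not called became called by limma in any of these alternatives. The count of members that fell was 16 to 22 and of those that rose 5 or 6, and the items called numbered 6198 to 7324 of those tested, with 6872 of 29453 when the detection filter was dropped. Without a vehicle array, 21 to 24 of 33 tested members were called, lowest without replicate 2. Without a tunicamycin array, 24 or 25 of 35 were called. The counts differ in what was tested, as Pck1 and Ppargc1a could not be tested without a vehicle array. Deviations from the group means correlated at 0.12, 0.05 and 0.00 between the arrays of equal number 1, 2 and 3. The equal number gave the highest correlation for numbers 1 and 2 and not for 3. Such low values from so few arrays cannot settle whether the arrays were paired. A replicate block gave 7324 items and 28 members called, against 7294 items and 28 members without it. Background correction and probe choice moved the fold of several genes by over 1.5 times, as given beside them.

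Signs turned in these alternatives only for values near 0. With 1 median per array, Pfkp minus Pfkl changed by -0.0871, Ugp2 had a log2 fold change of 0.066 and Pfkl 0.0301. Pfkp minus Pfkl was -0.0477 with probes averaged and -0.0762 from the second deposited table. Leaving out an array in turn gave -0.048 to 0.2717 for Pfkp minus Pfkl, -0.1441 to 0.0871 for Ugp2, -0.0139 to 0.2051 for Pygb, -0.2976 to 0.0549 for Pfkl, -0.1916 to 0.0666 for Pfkp, -0.1931 to 0.0878 for Pfkfb3 and -0.1269 to 0.0134 for Gapdh. The causes were not tested. Signal over background limits Pfkp, Pfkfb3, Hk1, Pgm2 and Pgd.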

Other observations

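The E-box CACGTG, read on both strands, was found in 6 of the 43 promoter windows of tested members, or 13.95%, against 7.15% of all 32851 windows. The 6 genes were Gyg, Khk, Ldha, Pcx, Pfkfb3 and Ppp1r3c, of which 4 fell, 1 rose and 1 was not called. Of all 33 members with a window, 21 fell, 5 rose and 7 were not called. The C/EBP-ATF response element TGATGCAA was found for G6pc alone among the members' windows, at -138 to -131 from the start on the opposite strand, and 0.89% of all windows hold it. The full cAMP response element TGACGTCA was found for Ldha alone, at -12 to -5 from the start, and overlaps TGACG there. Some genes have several windows, so windows are not independent, and no difference in share was tested.

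The count of CG dinucleotides in the window had a median of 18 (range 11 to 24) over the 5 members with a window that rose and 15 (range 2 to 38) over the 21 that fell, taking the mean where a gene has several windows. The ranges overlap. Over all named genes tested with a window, the medians were 22 for the 2383 that rose and 17.25 for the 2493 that fell, and no difference between members and other genes was tested.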
